A study of Mus musculus with 58 samples.

Results

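Transcripts of 10 genes that mark Kupffer cells, the macrophages resident in the liver sinusoids, were followed through RNA-seq of 58 whole mouse livers. They were taken by symbol from the table of 24537 genes, 1 row for each of the 10 symbols, and none was lost to the filter on low counts in any comparison. Every liver came from a male C57BL6/J mouse given AAV8, a viral vector that enters liver cells, with the TBG promoter, which is active in hepatocytes and so does not target the macrophages themselves. The vector carried Myc, a growth-driving transcription factor and oncogene, or mApple, whose product only glows red, as the control. Mice then received ruxolitinib, a drug that blocks the Janus kinases JAK1 and JAK2 downstream of many cytokine receptors, by gavage at 45 mg/kg 2 times a day with weekend breaks for 30 days, or vehicle. The groups are old Myc ruxolitinib (14 libraries, 4 in the first sequencing batch and 10 in the second), old Myc vehicle (11, as 6 and 5), old mApple ruxolitinib (9, as 4 and 5), old mApple vehicle (8, as 4 and 4), young Myc ruxolitinib (10) and young mApple vehicle (6). Old mice were 25 months in the first batch and 24 months in the second, so that old age and batch cannot be told apart. Young mice were 4 months and are in the second batch only. Young Myc vehicle and young mApple ruxolitinib livers were not analysed here.

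Kupffer cells settle in the liver before birth, renew themselves there and are kept alive by signals through the receptor for colony stimulating factor 1. They clear bacteria, complement-coated particles, dying cells and old red blood cells from portal blood. When they are lost, monocytes from the blood enter the niche and acquire the resident programme in steps, with the phosphatidylserine receptor Timd4 known as a late or incomplete step. Clec4f, Timd4, Vsig4 and Marco are used to tell resident cells from newly recruited ones, whereas Adgre1, Csf1r and C1qa are shared with many other macrophages.

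Libraries held 10.68 to 40.98 M counts in exons (median 14.6 M), and the lowest count of any of the 10 genes in any library was 6. Levels are given as CPM, the counts of a gene scaled to a common library size (by TMM). Hepatocyte genes were abundant, in keeping with the tissue label. Summed over 10 of them, levels were 48139 to 219078 CPM in the first batch and 83794 to 215169 CPM in the second. The Myc transcript, which checks the vector label, ran from 6.85 to 132.2 CPM in libraries labelled old Myc and from 2.35 to 56.8 CPM in those labelled old mApple, and from 36.1 to 61.5 CPM in young Myc against 4.23 to 22.4 CPM in young mApple livers. The lowest old Myc value is that of library 870, labelled old Myc vehicle, and the highest old mApple value that of library 855, labelled old mApple vehicle. Leaving out library 870 changed no call among the 10 genes except that of Cd163 in batch by drug in old Myc livers. Leaving out library 855 changed no call among them, and no fit left out both. The labels give each library its own number and do not state that each came from a separate mouse, so p-values measure the spread between libraries of a group, which may in part be technical. In whole liver RNA, fewer Kupffer cells and less RNA per cell cannot be told apart.

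The starts of 5 of the genes are shown as examples: Clec4f, Vsig4 and Timd4 from the ruxolitinib comparison, Cd5l and Cd163 from the age comparison. Each line is the 250 bases before the RefSeq transcript start on GRCm38.p6, 5′ to 3′ on the strand of the gene. Capitals mark GAGGAA, the core of sites bound by the macrophage factor PU.1, or TGCTGA, part of the site of the MAF factors, on either strand. The regions are chr6:83656117-83656366 on the minus strand for Clec4f, chrX:96293439-96293688 on the minus strand for Vsig4, chr11:46810549-46810798 on the plus strand for Timd4, chr3:87357631-87357880 on the plus strand for Cd5l and chr6:124304401-124304650 on the plus strand for Cd163.
Clec4f: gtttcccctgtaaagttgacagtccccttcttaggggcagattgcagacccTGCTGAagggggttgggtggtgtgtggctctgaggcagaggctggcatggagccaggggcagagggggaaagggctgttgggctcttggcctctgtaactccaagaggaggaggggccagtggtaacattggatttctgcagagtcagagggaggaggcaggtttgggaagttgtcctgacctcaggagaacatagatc
Vsig4: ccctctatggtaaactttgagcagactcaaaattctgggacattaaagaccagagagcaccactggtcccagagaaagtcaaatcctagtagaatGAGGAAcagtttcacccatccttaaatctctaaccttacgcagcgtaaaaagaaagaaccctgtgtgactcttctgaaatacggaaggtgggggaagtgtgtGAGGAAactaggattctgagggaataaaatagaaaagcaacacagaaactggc
Timd4: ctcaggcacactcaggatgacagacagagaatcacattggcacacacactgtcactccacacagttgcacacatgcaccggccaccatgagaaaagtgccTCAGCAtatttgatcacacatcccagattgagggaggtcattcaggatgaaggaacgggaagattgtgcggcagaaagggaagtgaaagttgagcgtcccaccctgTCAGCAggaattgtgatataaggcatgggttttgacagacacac
Cd5l: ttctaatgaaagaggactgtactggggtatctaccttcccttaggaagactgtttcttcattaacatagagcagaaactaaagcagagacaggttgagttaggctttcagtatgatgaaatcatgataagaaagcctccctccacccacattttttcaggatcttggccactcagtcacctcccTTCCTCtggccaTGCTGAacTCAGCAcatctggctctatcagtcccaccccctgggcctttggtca
Cd163: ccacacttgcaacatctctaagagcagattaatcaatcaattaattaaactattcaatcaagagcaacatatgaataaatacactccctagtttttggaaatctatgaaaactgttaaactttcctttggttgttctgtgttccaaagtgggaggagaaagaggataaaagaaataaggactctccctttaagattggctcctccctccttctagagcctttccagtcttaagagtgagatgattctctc

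Of the 10 genes 7 have a RefSeq promoter window of 300 bases, which runs from 250 before to 50 after the start. GAGGAA was found in the windows of Vsig4 (2 matches), Marco (1) and Cd5l (1), and 28.3% of all 32851 windows hold it. TGCTGA was found in those of Clec4f (1), Vsig4 (1, after the start), Timd4 (2), Cd5l (2) and Folr2 (1), against 19.5% of all windows. Neither TTCNNNGAA, the site of STAT factors (8.3% of all windows), nor the interferon response element (3.44%), was found in any of the 7. No match of the 4 motifs was found in the Cd163 window. A match describes letters in these windows and not binding.

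Compared per kilobase of the counted transcript (RPKM), the genes differed widely in level within young mApple vehicle livers. Cd5l had 29.7 ± 17.6 RPKM, C1qa 29.4 ± 11.5 and Clec4f 27.1 ± 8.24 (SD, n = 6 each), and these did not differ beyond their spread. Vsig4 followed with 17.6 ± 6.94, Csf1r with 11.2 ± 5.16 and Folr2 with 7.04 ± 1.48 RPKM. Adgre1 (4.61 ± 3.09), Marco (4.45 ± 5.44), Cd163 (3.09 ± 0.782) and Timd4 (2.88 ± 1.24 RPKM) were lowest and overlapped within their spread. By the median over all 58 libraries C1qa was first with 43.6 RPKM, then Cd5l with 37.0, Clec4f with 27.8, Vsig4 with 20.1 and Csf1r with 16.4 RPKM. Cd163 had the lowest median, 1.77 RPKM, beside 2.01 RPKM for Timd4.

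The 10 transcripts were very uneven among the old Myc livers under ruxolitinib. In the first batch libraries 860 and 861 held the highest and second highest value of all 58 libraries for each of the 10 genes, 860 leading in 8 and 861 in Timd4 and Cd163. Their summed level of the 10 genes was 4438 and 2906 CPM, against 1087 CPM in library 868 and 426.5 CPM in library 869 of the same group and batch. First-batch old Myc vehicle livers summed to 217.9 to 573.8 CPM. In the second batch the sums were 168.9 to 442.3 CPM in old Myc ruxolitinib livers and 333.3 to 563.6 CPM in old Myc vehicle livers. The high values are thus in the first batch and mainly in a pair of livers, and second-batch ruxolitinib livers lay within or under the vehicle range.

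**Figure D1:**
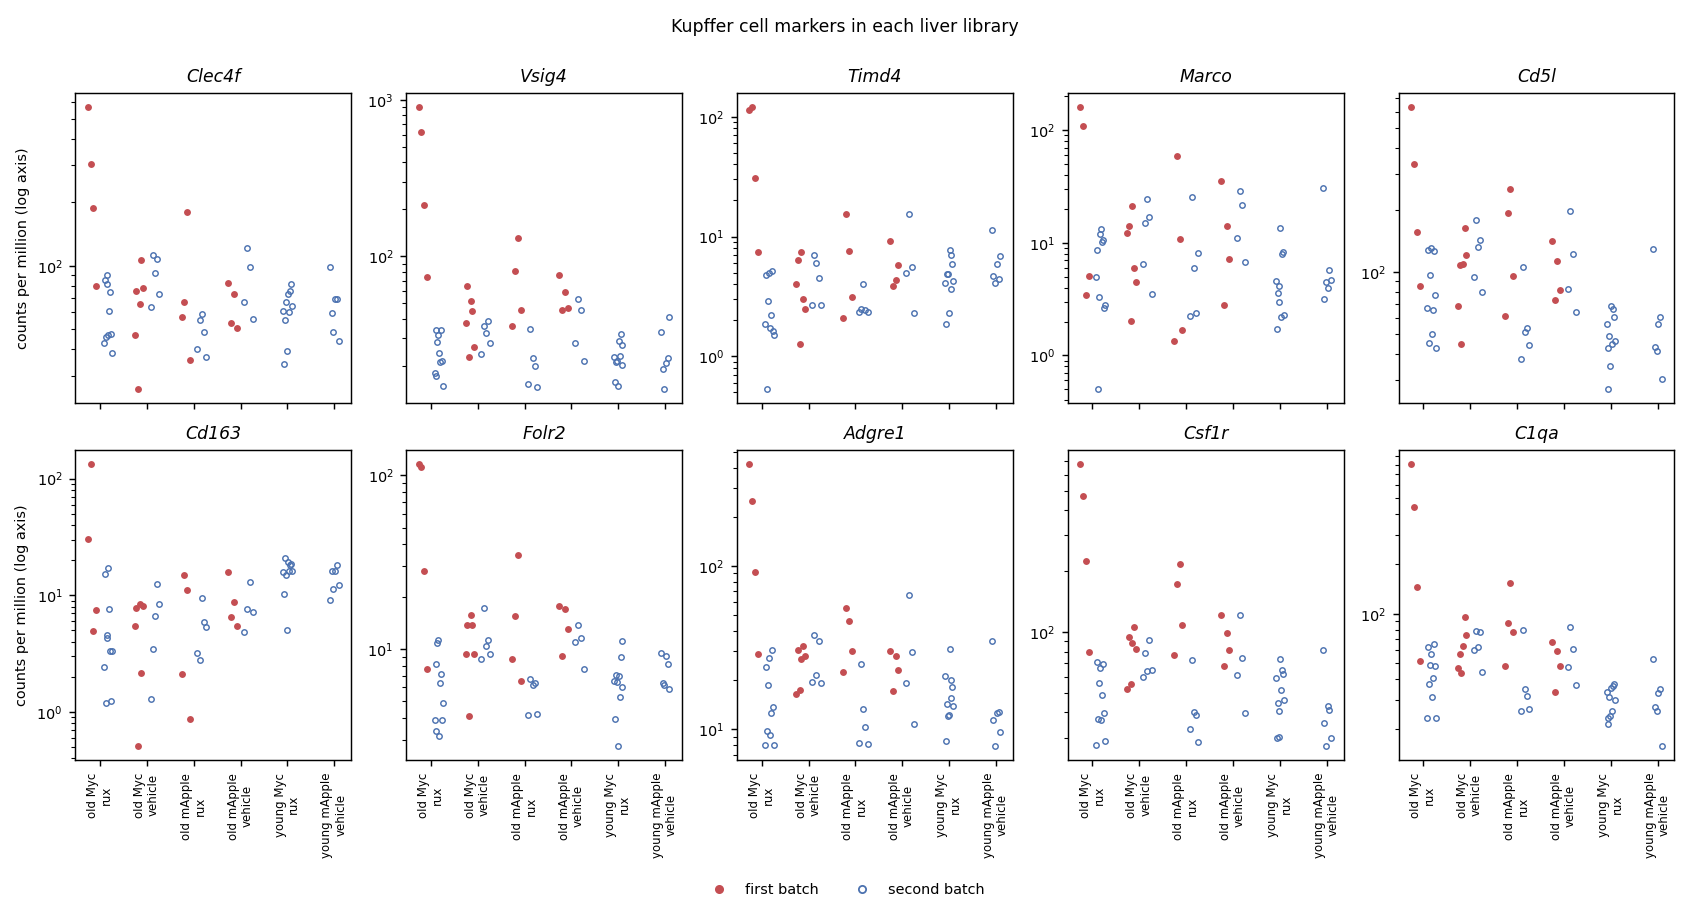
CPM of each of the 10 Kupffer cell markers on a log axis, 1 point per liver library, by group, with the first sequencing batch as filled red points and the second as open blue points. The top points of every panel are first-batch old Myc ruxolitinib livers, up to 908.3 CPM for Vsig4 and 120.9 CPM for Timd4.

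Clec4f encodes a C-type lectin that binds glycolipids and, in mouse, is confined to Kupffer cells (chr6:83644542-83656116). In libraries 860, 861, 868 and 869 it had 570, 305.8, 188.2 and 79.8 CPM, against 26.0 to 106.2 CPM (median 71.0) in the 6 first-batch old Myc vehicle livers. Libraries 860, 861 and 868 stood above all vehicle livers. Library 869 lay within them only through library 870 (106.2 CPM), the old Myc liver with the lowest Myc. Second-batch values ran from 38.3 to 90.6 CPM (median 54.0) in the 10 ruxolitinib livers and from 63.9 to 112.2 CPM (median 91.9) in the 5 vehicle livers, overlapping with the ruxolitinib median below the lowest vehicle liver.

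Vsig4 encodes a complement receptor that captures C3b-coated bacteria from the blood (chrX:96247203-96293438). Its values in libraries 860, 861, 868 and 869 were 908.3, 624.2, 212.8 and 73.7 CPM, against 22.8 to 64.5 CPM (median 41.0) in first-batch old Myc vehicle livers. All 4 lay above all 6. In second-batch livers it had 14.9 to 34.0 CPM (median 22.8) with ruxolitinib and 23.7 to 38.5 CPM (median 32.2) with vehicle, and those ranges overlapped.

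Timd4 encodes a phosphatidylserine receptor for dying cells and marks long-resident Kupffer cells (chr11:46810799-46844333). Libraries 860, 861, 868 and 869 had 114.1, 120.9, 30.6 and 7.45 CPM, against 1.27 to 7.45 CPM (median 3.51) in first-batch old Myc vehicle livers. All 4 were higher than all 6, although library 869 and vehicle library 867 differ only beyond the third digit. Among second-batch livers it ran from 0.537 to 5.13 CPM (median 2.02) with ruxolitinib and from 2.67 to 7.06 CPM (median 4.5) with vehicle. Here the ruxolitinib median is under the lowest vehicle liver, with ranges that overlap.

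Marco encodes a scavenger receptor for bacteria and particles (chr1:120474538-120505084). It had 161.8 and 110.4 CPM in libraries 860 and 861 but 3.44 and 5.12 CPM in 868 and 869, against 2.04 to 21.2 CPM (median 9.13) in first-batch vehicle livers. Only the pair 860 and 861 stood above the vehicle range.
Cd163 encodes the scavenger receptor for haemoglobin bound to haptoglobin (chr6:124304651-124330527). Its values were 30.2 and 133.6 CPM in 860 and 861 and 4.93 and 7.45 CPM in 868 and 869, against 0.51 to 8.43 CPM (median 6.58) in those vehicle livers. For these scavenger receptors libraries 868 and 869 thus lay inside the vehicle range. Second-batch Marco ran from 0.505 to 13.3 CPM with ruxolitinib and from 3.48 to 24.7 CPM with vehicle, and Cd163 from 1.2 to 17.0 CPM with ruxolitinib and from 1.29 to 12.6 CPM with vehicle.

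Cd5l encodes a secreted protein that binds IgM and limits macrophage death (chr3:87357881-87371074). It had 632.4, 333.8, 156.4 and 85.2 CPM in libraries 860, 861, 868 and 869, against 44.8 to 163.6 CPM (median 108.3) in first-batch vehicle livers. C1qa encodes a chain of C1q, which starts the classical complement pathway (chr4:136895916-136898844). Its values there were 808, 445.3, 145.9 and 51.7 CPM, against 43.7 to 96.1 CPM (median 60.6). Library 869 lay within the vehicle livers for both, and 868 within them for Cd5l, there only through library 870 (163.6 CPM). Second-batch Cd5l ran from 42.9 to 129.9 CPM (median 72) with ruxolitinib and from 80.1 to 177.9 CPM (median 131.4) with vehicle, and C1qa from 23.3 to 65.8 CPM (median 44.4) with ruxolitinib and from 44.5 to 78.1 CPM (median 63.3) with vehicle. Both overlapped, with the ruxolitinib medians under the lowest vehicle values.

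Csf1r encodes the survival receptor of macrophages (chr18:61105572-61131139). In libraries 860, 861, 868 and 869 it had 676.4, 472.2, 224 and 79.3 CPM, against 52.2 to 105.9 CPM (median 84.9) in first-batch vehicle livers. Adgre1, which encodes the F4/80 surface antigen (chr17:57358686-57483529), had 420.7, 249.0, 92.3 and 29.0 CPM, against 16.5 to 32.3 CPM (median 27.5). Folr2 encodes folate receptor beta (chr7:101839988-101845331) and had 116.1, 111, 28.2 and 7.61 CPM, against 4.08 to 15.7 CPM (median 11.5). In each of the 3 genes libraries 860, 861 and 868 stood above the vehicle livers and library 869 did not. The antisense gene Gm10602 overlaps an exon of Folr2, and the counting command names no strand option, so their reads may not be separated.
Second-batch Csf1r ran from 27.7 to 71.1 CPM with ruxolitinib and from 59.6 to 91.0 CPM with vehicle, Adgre1 from 7.99 to 30.4 and from 19.1 to 37.9 CPM, and Folr2 from 3.13 to 11.2 and from 8.77 to 17.3 CPM, in the same order of groups.

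Over both batches, with batch as a term, edgeR's quasi-likelihood test called none of the 10 genes between old Myc ruxolitinib and vehicle livers at an adjusted p of 0.05, where 0.545% of all genes tested were called. All 10 estimates were positive, with log2 fold changes of 0.31 to 1.22 and a median of 0.64, against 0.01 over all genes. Of the 10, 1 had an unadjusted p under 0.05 (Vsig4, log2 fold change 1.16 ± 0.50 (SE), adjusted p = 0.313), as did 1925 of 13749 genes tested. DESeq2 also called 0 of the 10. A single fit of all 58 libraries, which gives the 2 batches equal weight, called 8 of the 10 as higher. It called 2194 of 14239 genes tested. Without libraries 860 and 861 the median was -0.05 and 0 of the 10 were called, where 102 of 13868 genes were. In fits that left out each library in turn none of the 10 was called.

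The batches were then fitted apart. In the first batch alone 7 of the 10 genes passed as higher with ruxolitinib, where 6.73% of genes were called: Timd4 (log2 fold change 4.13 ± 0.69, adjusted p = 0.0247 by edgeR), Vsig4 (3.53 ± 0.58), Adgre1 (3.03 ± 0.56), Folr2 (2.65 ± 0.62), C1qa (2.58 ± 0.58), Csf1r (2.25 ± 0.47) and Clec4f (2.17 ± 0.49). Cd163 (3.10 ± 0.88), Marco (2.89 ± 0.95) and Cd5l (1.63 ± 0.50) did not pass, with adjusted p-values of 0.0563, 0.0877 and 0.0712 by edgeR. Vsig4 and Timd4 were the 2 of 10 with every ruxolitinib liver above every vehicle liver in this batch, as were 1.57% of all genes tested. In the second batch alone all 10 estimates were negative, with log2 fold changes of -0.94 to -0.11 and a median of -0.58. None of the 10 was called there (smallest adjusted p = 0.351 by edgeR), where 9 of 13735 genes were called. An unadjusted p under 0.05 was reached by 6 of the 10, and the number of all genes under it is not given here.

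The test of the difference itself, batch by drug in old Myc livers, called all 10 genes, with a larger ruxolitinib difference in the first batch than in the second, where 16.3% of all genes were called. The log2 differences ran from 2.23 ± 0.55 for Cd5l (adjusted p = 0.00819 by edgeR) to 4.88 ± 0.78 for Timd4 (adjusted p = 0.000642), with a median of 3.37 against -0.02 over all genes. Over the 25 fits that each left out 1 library, 7 to 10 of the 10 genes were called, where 945 to 4576 of all genes were. The call of Cd163 was lost in 12 of the 25, without library 858, 860, 861, 866, 870, 871, 1146, 1147, 1148, 1149, 1153 or 1158, with log2 differences of 1.58 to 3.61 over the 25 fits. The call of Marco was lost in 2, without 860 or 861, that of Cd5l in 1, without 860, and the other 7 genes were called in each of the 25. With 860 and 861 both left out, the first-batch ruxolitinib livers were 868 and 869 alone, and none of the 10 was called. In that fit 9 of 10 estimates were still positive and 7 had an unadjusted p under 0.05. The number of all genes called there is not given here. In that reduced fit Vsig4 had a log2 difference of 2.18 ± 0.42 (adjusted p = 0.0762 by edgeR) and Timd4 of 2.99 ± 0.74. Batch is here the order of sequencing in the labels and also separates mice of 25 and 24 months, and these cannot be told apart.

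**Figure D2:**
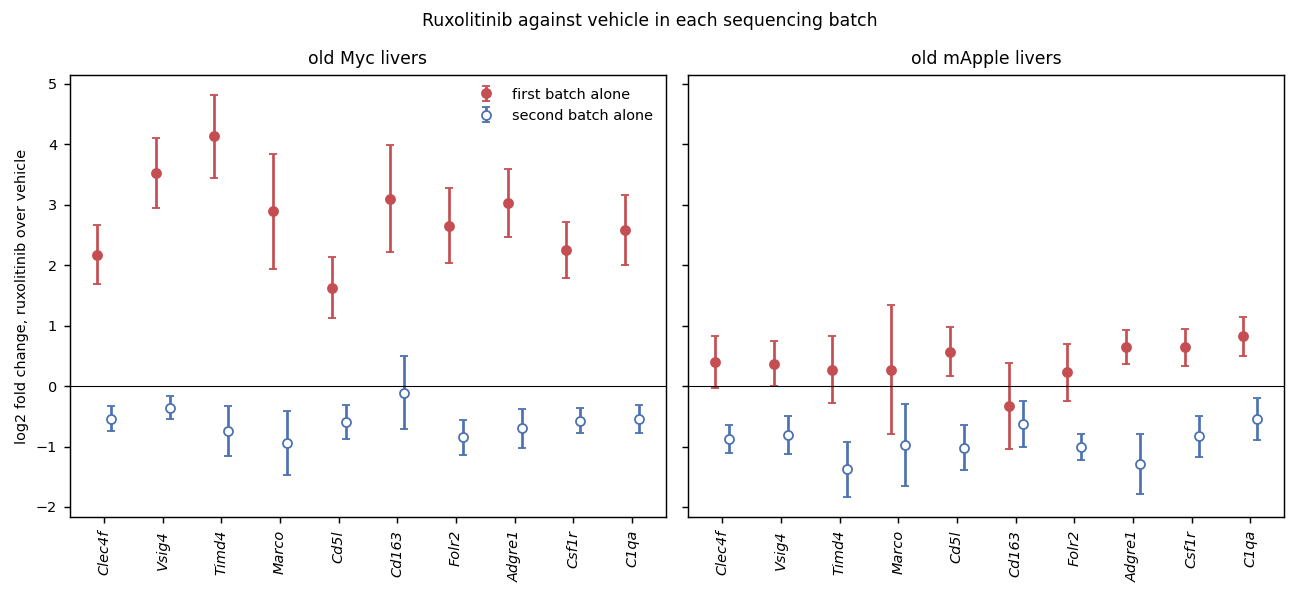
Log2 fold change of ruxolitinib over vehicle for each of the 10 genes, with bars of 1 standard error, in the first batch alone (filled red) and the second batch alone (open blue), for old Myc livers on the left and old mApple livers on the right. In old Myc livers the first-batch estimates lie between 1.63 and 4.13 and the second-batch estimates between -0.94 and -0.11.

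Other macrophage genes moved with the 10 in this contrast of batches. Of 16 general macrophage genes, all 16 were called as larger in the first batch, among them Itgam, an integrin chain of myeloid cells (log2 difference 5.71 ± 0.80), Cd68, a lysosomal protein (3.30 ± 0.49), and Fcer1g, an Fc receptor adaptor (3.43 ± 0.56). Of 14 other Kupffer genes 10 were called, with Cfp, which encodes the complement factor properdin, at 4.27 ± 0.61, Hmox1, the haem-degrading enzyme, at 3.07 ± 0.51 and Slc11a1, a metal transporter of phagosomes, at 3.01 ± 0.50. Of 11 transcription factors tied to Kupffer identity 6 were called, including Spi1, which encodes PU.1 (3.10 ± 0.51), Spic (2.35 ± 0.50), known for iron-handling macrophages, and Maf (1.78 ± 0.37). Of 5 tested genes on the list of colony stimulating factors and receptors 3 were called, the receptor chain genes Csf2ra, Csf2rb and Csf2rb2.

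Markers of recruited and other cells were also called in the same contrast. Of 12 monocyte-derived cell genes 6 were called, with Trem2 at 3.96 ± 0.67, Ly6c2 at 3.22 ± 0.61 and F13a1 at 4.75 ± 1 on the log2 scale, and 6 of 9 tested neutrophil genes, led by Mmp9 at 6.55 ± 0.98. Summed neutrophil genes came to 231.5 and 258.9 CPM in libraries 860 and 861 and to 67.3 and 12.4 CPM in 868 and 869, against 8.58 to 33.5 CPM in first-batch old Myc vehicle livers. Summed monocyte-derived cell genes came to 264.1, 566.1, 235.2 and 105.1 CPM in the same 4 libraries, against 109.3 to 225.5 CPM. The 10 hepatocyte genes summed to 85932 and 50546 CPM in 860 and 861 and to 109838 and 183984 CPM in 868 and 869, against 131200 to 161201 CPM in the vehicle livers, and 4 of the 10 were called lower in the contrast. Libraries 860 and 861 thus combine the highest Kupffer transcripts with high sums of the neutrophil list and low hepatocyte sums. The part of these sums in the result was not tested. S100a8, a gene of the neutrophil list, did not follow the list sum in library 860. It had 8.22 CPM there, less than in library 868, and 23.7 CPM in library 861, more than in 868. Whether the high list sums reflect more neutrophils was not tested. No gene of the neutrophil, monocyte-derived or hepatocyte lists was at 0 in all libraries of a first-batch group.

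**Figure D3:**
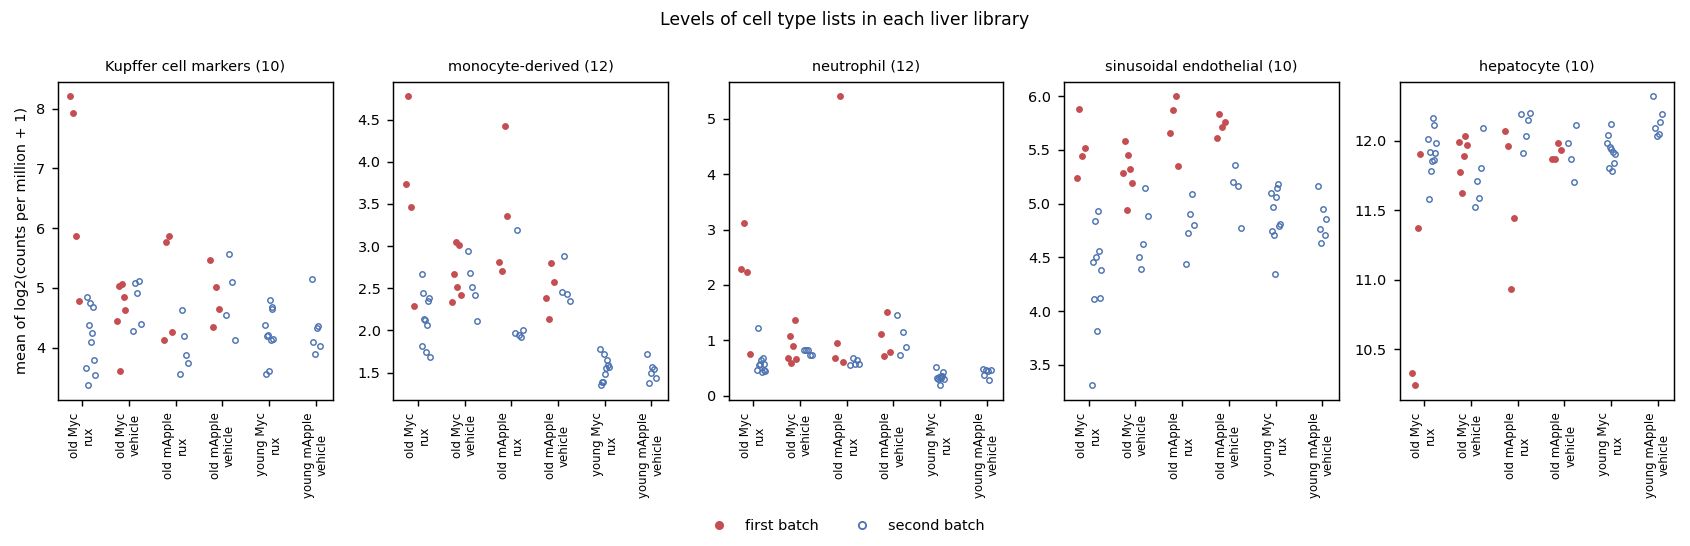
Mean of log2(CPM + 1) over the genes of 5 lists, 1 point per library, by group, with first-batch livers filled red and second-batch livers open blue. Libraries 860 and 861 lead the Kupffer cell markers at 8.21 and 7.92 and have the lowest hepatocyte levels at 10.33 and 10.24, while the highest neutrophil level, 5.41, is that of library 864.

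In old mApple livers ruxolitinib was not followed by a called change of any of the 10 genes, where 0.391% of all genes were called. Estimates were negative for 9 of 10, from -0.59 to 0.09 with a median of -0.33 against 0.01 over all genes, none had an unadjusted p under 0.05, and DESeq2 called 0 as well. The batches again pointed apart. In the first batch Clec4f had 57.1, 67.2, 180.5 and 35.7 CPM in ruxolitinib libraries 856, 857, 864 and 865, against 82.6, 53.5, 73.6 and 50.8 CPM in the 4 vehicle libraries. Timd4 had 2.11, 15.3, 7.61 and 3.13 CPM in those ruxolitinib libraries, against 9.18, 3.89, 4.30 and 5.76 CPM. Library 864 was high for Clec4f and 857 for Timd4, and the groups overlapped. Library 864 also had the highest neutrophil sum of this group, 981.2 CPM, whose part was not tested.

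In the second batch of old mApple livers all 10 estimates were negative, from -1.38 to -0.54, and 7 had an unadjusted p under 0.05. The number of all genes under that p is not given here. None of the 10 passed adjustment, where edgeR called 11 of 13381 genes. Timd4 was at 2.34, 2.35, 2.46, 2.51 and 4.04 CPM with ruxolitinib, against 2.32, 5, 5.53 and 15.4 CPM with vehicle. Folr2 ran from 4.17 to 6.72 CPM in the 5 ruxolitinib livers and from 7.64 to 13.7 CPM in the 4 vehicle livers. Folr2 was the 1 of 10 members whose groups did not overlap in this batch, where 1.54% of all genes tested had every ruxolitinib liver below every vehicle liver (log2 fold change -1.01 ± 0.21, adjusted p = 0.177 by edgeR), while Timd4 overlapped through 1 low vehicle liver. The first-batch estimates were positive for 9 of 10, from 0.23 for Folr2 to 0.82 for C1qa, with Cd163 at -0.33. For batch by drug in old mApple livers edgeR called 0% of all genes and none of the 10, with 2069 genes and 8 of the 10 at an unadjusted p under 0.05, and DESeq2 called 35 genes and none of the 10. All 10 differences were positive, with a median of 1.31, and without library 1140 edgeR called Adgre1, Csf1r and C1qa. Over the fits that each left out 1 library, 0 to 485 of all genes were called.

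Myc was compared with mApple under vehicle to ask what the oncogene in hepatocytes does to the resident macrophage signal without the drug. None of the 10 genes was called by edgeR or DESeq2, where 18.8% of all genes were, and none had an unadjusted p under 0.05 by edgeR. The log2 fold changes ran from -0.59 to 0.20 with a median of -0.18, against -0.02 over all genes. Clec4f ran from 26.0 to 112.2 CPM (median 76.0) in the 11 Myc livers and from 50.8 to 121.8 CPM (median 70.4) in the 8 mApple livers, and Csf1r from 52.2 to 105.9 CPM (median 78.9) and from 39.7 to 121.9 CPM (median 77.8). The groups overlapped over most of their range. Libraries 870 and 855, named above for their Myc values, are both in this comparison. In the same contrast 9 of 10 sinusoidal endothelial genes were called lower, such as Kdr, a VEGF receptor (log2 fold change -0.54 ± 0.11), and all 5 proliferation genes higher, Cdk1 by 2.24 ± 0.38. Of the other Kupffer genes C6, a complement component (-0.81 ± 0.19), and Mrc1, the mannose receptor shared with sinusoidal endothelium (-0.46 ± 0.12), were called lower.

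Under ruxolitinib, Myc livers lay above mApple livers in all 10 estimates, with log2 fold changes of 0.47 to 1.22 and a median of 0.86 against 0.01 over all genes. None passed adjustment by edgeR, where 14.4% of all genes were called. An unadjusted p under 0.05 was found for 5 of the 10 and for 4146 of 14010 genes tested. Timd4 had the largest estimate, 1.22 ± 0.58 (adjusted p = 0.164), and Clec4f the smallest adjusted p, 0.0735 at a log2 fold change of 0.85 ± 0.32. DESeq2 called Clec4f, the fit of all 58 libraries called 9 of 10, leaving out library 1140 gave Vsig4, Adgre1 and C1qa, and leaving out library 869 gave Clec4f. Fits that each left out 1 library called 1538 to 2248 of all genes. Within the first batch the median was 1.99 and within the second 0.18, and none of the 10 was called in either. The shares of all genes called by DESeq2, by the fit of all libraries and in each batch alone are not given here. This comparison shares its Myc libraries with the ruxolitinib comparison above, including 860 and 861, and without those and 864 and 865 the median was 0.27.

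Vector by drug, the test of whether the ruxolitinib difference depends on the vector in old livers, gave positive estimates for all 10 genes with a median of 1.20 against 0 over all genes. EdgeR called 0% of 14046 genes tested and none of the 10, with 735 genes and 4 of the 10 (Vsig4, Timd4, Cd163 and Adgre1) at an unadjusted p under 0.05, and DESeq2 called 2 genes, none of them among the 10. Timd4 had the largest estimate at 2.39 ± 0.92 (adjusted p = 0.816 by edgeR). In the second batch alone the median was 0.36 and in the first 2.40.

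Age was compared in the second batch, where old and young livers were sequenced together. Among mApple vehicle livers 9 of 10 estimates were higher in old mice, with a median log2 fold change of 0.69 against 0 over all genes, but none passed adjustment by edgeR or DESeq2, where edgeR called 1.10% of all genes. Of the 10, 6 had an unadjusted p under 0.05, as did 2337 of 13155 genes tested. C1qa had 37.2, 47.3, 61.0 and 82.6 CPM in the 4 old livers, against 15.8 to 52.9 CPM (median 30.3) in the 6 young livers, a log2 fold change of 0.86 ± 0.29 (adjusted p = 0.162 by edgeR). Cd5l had 63.6, 82.5, 122.3 and 196.4 CPM in old livers, against 30.3 to 129.5 CPM (median 49.8) in young livers. In both genes all 4 old livers were above 5 of the 6 young livers, and the groups overlapped through young library 1129.

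Library 1129 was the young mApple vehicle liver with the highest value of Marco, 30.5 CPM against 3.19 to 5.74 CPM in the others, and of Adgre1, 34.8 CPM against 7.92 to 12.8 CPM. Without it edgeR called Marco (log2 fold change 1.96, adjusted p = 0.0187), Cd5l (1.33, adjusted p = 0.0359) and C1qa (1.06, adjusted p = 0.0435) as higher in old mApple vehicle livers. Over the fits that each left out 1 library, 22 to 502 of all genes were called. Cd163 went the other way in this pair of groups, with 4.82, 7.24, 7.62 and 13.1 CPM in old livers against 9.08 to 18.2 CPM (median 14.1) in young livers, a log2 fold change of -0.75 ± 0.26 (adjusted p = 0.174 by edgeR). Of the 4 old livers 3 were below all young livers.

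In Myc ruxolitinib livers 3 of the 10 genes were called between old and young mice, where 33.7% of all genes were. The count is near that share and does not set the 10 apart from other genes. Cd163 ran from 1.20 to 17.0 CPM (median 3.79) in the 10 old livers and from 5.05 to 20.7 CPM (median 16.1) in the 10 young livers, a log2 fold change of -1.40 ± 0.40 (adjusted p = 0.00965 by edgeR). The old median lay under the lowest young liver and 2 old livers lay among the middle of the young ones, so the groups overlapped. Cd5l was higher with age, at 42.9 to 129.9 CPM (median 72) in old livers and 27.1 to 68.0 CPM (median 47.6) in young livers, with a log2 fold change of 0.74 ± 0.22 (adjusted p = 0.0119 by edgeR). C1qa rose by 0.55 ± 0.18 on the log2 scale (adjusted p = 0.0203), with 23.3 to 65.8 CPM (median 44.4) in old livers and 21.6 to 37.6 CPM (median 30.7) in young livers. In the fit of all 58 libraries Cd163 alone of these passed.

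Timd4 had 0.537 to 5.13 CPM (median 2.02) in old Myc ruxolitinib livers and 1.86 to 7.68 CPM (median 4.55) in young ones. Its log2 fold change of -0.76 ± 0.32 did not pass (adjusted p = 0.0738 by edgeR, 0.0496 by DESeq2), and it passed in 4 of the 20 fits that left out 1 library, those without 1120, 1150, 1153 or 1156. The other 6 genes had log2 fold changes of -0.07 to 0.42 with standard errors of 0.16 to 0.44 and did not pass. The median of the 10 was -0.02 against 0.02 over all genes. Of the 10 only Cd163 was lower in old mice in both pairs of groups by more than 2 standard errors, but the second pair did not pass adjustment, and whether the age difference depends on vector and drug was not tested.

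**Figure D4:**
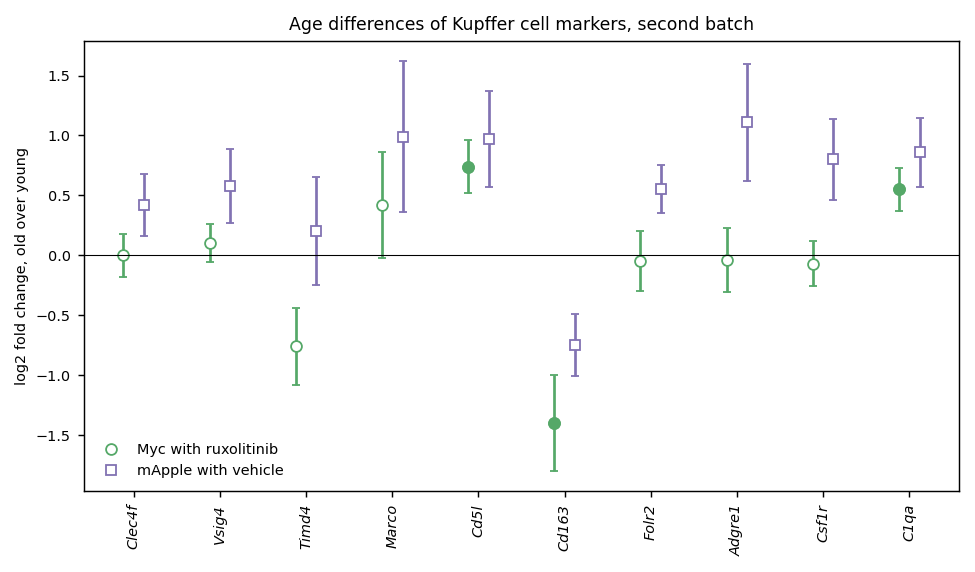
Log2 fold change of old over young livers in the second batch for each of the 10 genes, with bars of 1 standard error, for Myc with ruxolitinib (green circles) and mApple with vehicle (purple squares). Filled symbols passed an adjusted p of 0.05, which are Cd5l, Cd163 and C1qa in Myc ruxolitinib livers, and Cd163 is the lowest point of both groups at -1.40 and -0.75.

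Genes of other myeloid cells were also compared with age. In mApple vehicle livers 7 of 12 monocyte-derived cell genes were called higher in old mice with a list median of 1.87, including S100a4 (log2 fold change 2.77 ± 0.37), F13a1 (2.74 ± 0.37) and the chemokine receptor Cx3cr1 (1.94 ± 0.27). In Myc ruxolitinib livers 7 of 8 tested were called with a median of 1.08, among them Trem2 (1.19 ± 0.19) and Gpnmb (2.37 ± 0.42), which mark lipid-laden macrophages. General macrophage genes were called higher for 1 of 16 in mApple vehicle livers (Lgals3, 1.57 ± 0.28), where 1.10% of all genes were called. Their list median was 0.94, and 14 of 16 had an unadjusted p under 0.05, as did 2337 of 13155 genes tested. In Myc ruxolitinib livers, where 33.7% of all genes were called, 11 of 16 were called higher with a smaller list median of 0.63, led by Mpeg1 (1.30 ± 0.24) and Ms4a7 (1.5 ± 0.33). The difference between these age comparisons was not tested. Summed monocyte-derived cell genes were 118.1 to 160.5 CPM in old against 73.4 to 97.9 CPM in young mApple vehicle livers. They were 61.0 to 157.7 CPM in old against 63.4 to 79.9 CPM in young Myc ruxolitinib livers. Sinusoidal endothelial genes were called lower for 7 of 10 in old Myc ruxolitinib livers and for 0 of 10 in old mApple vehicle livers, where the median was 0.32. Neutrophil genes were called higher with age for 3 of 4 tested in mApple vehicle livers (median 2.16, S100a8 at 2.67 ± 0.46) and for both tested in Myc ruxolitinib livers (median 1.29). Of B and plasma cell genes 1 of 5 tested was called higher in old mApple vehicle livers (Jchain, the joining chain of IgA and IgM, 2.79 ± 0.33) and 3 of 3 in old Myc ruxolitinib livers (median 1.5, Jchain 2.89 ± 0.38). Of T and NK cell genes 1 of 4 tested was called higher in old mApple vehicle livers (Cd8a, 2.88 ± 0.59), and none passed the filter in Myc ruxolitinib livers. The part of these cells in the age differences of C1qa and Cd5l was not tested.

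In young livers, Myc ruxolitinib against mApple vehicle, where vector and drug differ together and cannot be told apart, none of the 10 genes was called by edgeR or DESeq2 and none had an unadjusted p under 0.05, while edgeR called 27.5% of all genes. Log2 fold changes ran from -0.76 for Marco to 0.22 for Csf1r with a median of -0.11 against -0.01 over all genes. Clec4f was at 34.2 to 81.5 CPM (median 62.7) in the 10 Myc ruxolitinib livers and at 43.8 to 98.8 CPM (median 64.3) in the 6 mApple vehicle livers, and its log2 fold change was -0.08 ± 0.18. Vsig4 had 14.9 to 31.8 CPM (median 22.0) and 14.2 to 40.8 CPM (median 21.7) in the same groups, with a log2 fold change of -0.13 ± 0.20. Both genes overlapped over almost their whole range. Without library 1129 Adgre1 passed as higher in young Myc ruxolitinib livers (log2 fold change 0.62, adjusted p = 0.0493 by edgeR). Fits that each left out 1 library called 3190 to 3789 of all genes. The other Kupffer genes C6 (-1.10 ± 0.14) and Clec1b, a platelet and Kupffer cell lectin (-0.41 ± 0.13), were called lower. The young mApple vehicle and young Myc ruxolitinib libraries also serve the age comparisons.

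After subtracting the mean of each group and batch, 9 of the 10 genes followed their joint mean level closely across the 58 libraries, with Spearman rho of 0.868 for C1qa to 0.933 for Csf1r, while Cd163 had 0.636. Each gene is part of that mean, and the libraries share depth and cell makeup, so the values are a description. Of 11748 genes ranked outside the 10, Cfp was most alike (rho 0.956, and 0.948 over the 54 libraries without 860, 861, 864 and 865). It was followed by Ptgs1, the cyclooxygenase of platelets and macrophages (0.915), Fpr1, a formyl peptide receptor (0.909), Sdc3 (0.906), C1qc, a partner chain of C1qa (0.900), Lgmn, a lysosomal protease (0.895), Pira2 (0.892) and Ctla2b (0.889), both members of families of near-identical genes whose reads may be shared, Itgal, an integrin chain of leukocytes (0.888), and Adgre4 (0.884).

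The ratio of each gene to Csf1r within a library describes the makeup of the signal apart from its total. The log2 ratio of Cd163 to Csf1r counts was -3.45 ± 1.22 in second-batch old Myc ruxolitinib livers against -1.72 ± 0.39 in young Myc ruxolitinib livers (SD, n = 10 each). It was -3.16 ± 0.80 in second-batch old mApple vehicle livers (n = 4) against -1.58 ± 0.79 in young mApple vehicle livers (n = 6). For Timd4 the ratio was -2.70 ± 0.60 in first-batch old Myc ruxolitinib livers (n = 4, from -3.41 to -1.97) against -4.46 ± 0.83 in first-batch old Myc vehicle livers (n = 6, from -5.43 to -3.56). These ranges did not overlap, and neither did those of Vsig4 (-0.11 to 0.43 against -1.65 to -0.49) and Adgre1 (-1.45 to -0.69 against -1.71 to -1.55) in the same groups, while those of the other 6 ratios overlapped. The share of all genes whose ratio to Csf1r separates these libraries was not computed. Timd4 and Vsig4 were also without overlap in CPM between the same libraries, so their ratios are not a separate result. In young livers the Timd4 ratio was -3.50 ± 0.33 with Myc and ruxolitinib and -2.78 ± 0.37 with mApple and vehicle. No test was made of these ratios.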

How the data were processed

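Polyadenylated RNA of 58 whole livers was sequenced in 2 batches as paired reads of 75 bases, per the labels' protocols. The authors deposited expected counts per gene over exons, of which 29.9% are not whole because they fall in steps of 0.5. Per the submitters' processing notes STAR and HOMER were used with mm10 (GRCm38), versions not given in the sources used here, and per the file headers the counting command was set to exons and names no strand option. Counts were rounded to whole numbers. edgeR 4.0.16 (R 4.3.3, limma 3.58.1) fitted quasi-likelihood models on TMM-scaled counts with batch as a term where both batches enter. Genes passed filterByExpr with a minimum count of 10, and p-values were adjusted by Benjamini-Hochberg over all genes tested with a threshold of 0.05. DESeq2 1.42.0 was an alternative, beside RLE scaling, no filter, 1 fit of all libraries, each batch alone, no batch term and leaving out libraries. Levels are CPM, log2(CPM + 1) or RPKM over the counted transcript. The fit was tested on simulated data. Plots were drawn with matplotlib 3.10.9, and tables were made in pandas 2.3.3 under Python 3.11.15. In some comparisons only part of the 10 members is named, and the rest are covered by counts, ranges and medians. From each other list at most the 3 called genes with the smallest p are named. Members and lists were chosen with earlier results of these data known. Depth was 10.68 to 40.98 M counts, and no 2 of the 164 within-group pairs of libraries were identical. Promoter bases are from RefSeq on GRCm38.p6.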

Additional observations from a re-analysis of the deposited data

Results flagged for a closer look

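In 100 groups of libraries examined gene by gene, 5 held a library far from the others, and chance gives about 1 in 20. Library 1141, old mApple ruxolitinib, had 4.04 CPM of Timd4 while the other 4 of its group and batch had 2.34 to 2.51 CPM. Library 1140 of the same group had 79.6 CPM of C1qa. Library 1123, young Myc ruxolitinib, was lowest in Cd163 with 5.05 CPM. Library 1129, young mApple vehicle, was highest in Marco with 30.5 CPM and in Adgre1 with 34.8 CPM.

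The log2 ruxolitinib difference in old Myc livers was larger in the first batch than in the second, by the test of batch by drug, for all 10 genes. The differences were 2.72 for Clec4f, 3.90 for Vsig4, 4.88 for Timd4, 3.84 for Marco, 2.23 for Cd5l, 3.23 for Cd163, 3.51 for Folr2, 3.75 for Adgre1, 2.83 for Csf1r and 3.14 for C1qa. The cause was not tested, and batch cannot be told apart from the ages of 25 and 24 months.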

How the results depend on the processing

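Of the log2 fold changes under alternatives that keep all replicates or drop a batch or 4 libraries, 530 kept direction and side of the threshold and 43 changed sign. Counts of members called changed in some fits. For old Myc ruxolitinib against vehicle they were 8 in 1 fit of all libraries, where 2194 of 14239 genes were called. In the first batch alone they were 7, where 907 of 13476 genes were called. For Myc against mApple with ruxolitinib they were 1 by DESeq2 and 9 in 1 fit of all libraries. They were 1 in the fit of all libraries for age with Myc and ruxolitinib. For batch by drug in old Myc they were 0 without libraries 860 and 861. The numbers of all genes called in these fits are not given here. The cause was not tested.

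Libraries 860 and 861 are old Myc ruxolitinib and 864 and 865 old mApple ruxolitinib, so each comparison lost only those of its own groups. Without libraries 860, 861, 864 and 865, old Myc ruxolitinib against vehicle gave Clec4f -0.02, Marco -1.02, Cd5l -0.32, Cd163 -0.01, Folr2 -0.32, Adgre1 -0.03, Csf1r -0.06 and C1qa -0.15. C1qa in mApple was -0.19, and Marco was -0.90 for Myc against mApple with ruxolitinib, -0.66 for vector by drug and -0.27 for batch by drug. In the second batch alone old Myc ruxolitinib against vehicle gave Clec4f -0.54, Vsig4 -0.36, Timd4 -0.74, Marco -0.94, Cd5l -0.59, Cd163 -0.11, Folr2 -0.85, Adgre1 -0.70, Csf1r -0.57 and C1qa -0.55. There C1qa in mApple was -0.54, Folr2 for Myc against mApple with vehicle 0.04, Timd4 -0.01 and Marco -0.37 with ruxolitinib, and C1qa for vector by drug -0.01. In the first batch alone ruxolitinib in mApple gave Clec4f 0.40, Vsig4 0.37, Timd4 0.27, Marco 0.27, Cd5l 0.57, Folr2 0.23, Adgre1 0.65 and Csf1r 0.64, and Myc against mApple with vehicle gave Cd5l -0.01 and Adgre1 0.03. With no batch term Csf1r was 0.07 for ruxolitinib in mApple and Clec4f -0.002 for Myc against mApple with vehicle. Clec4f with age in Myc ruxolitinib was -0.01 with RLE, -0.01 by DESeq2, -0.0009 with no filter and -0.03 in 1 fit of all libraries.

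Leaving out each library in turn, members called ranged from 0 to 1 in young livers and from 0 to 3 for Myc against mApple with ruxolitinib, batch by drug in mApple and age in mApple vehicle. They ranged from 7 to 10 for batch by drug in old Myc, with Cd163 lost in 12 of 25 fits, and from 3 to 4 for age in Myc ruxolitinib, with Timd4 gained in 4 of 20 fits, and were 0 throughout in the other 4 comparisons. Estimates that changed sign ranged, in young livers, from -0.22 to 0.13 for C1qa, -0.42 to 0.09 for Cd5l, -0.17 to 0.08 for Clec4f, -1.05 to 0.22 for Marco and -0.26 to 0.06 for Vsig4. For Myc against mApple with vehicle they ranged from -0.25 to 0.18 for Adgre1, -0.07 to 0.18 for Cd5l and -0.08 to 0.11 for Clec4f, and for ruxolitinib in mApple from -0.54 to 0.02 for Adgre1, -0.11 to 0.26 for C1qa and -0.30 to 0.09 for Csf1r. With age in Myc ruxolitinib they ranged from -0.20 to 0.10 for Adgre1, -0.08 to 0.06 for Clec4f, -0.14 to 0.01 for Csf1r and -0.18 to 0.06 for Folr2, and in mApple vehicle from -0.54 to 0.48 for Timd4. For batch by drug in mApple they ranged from -0.29 to 0.69 for Cd163 and -0.67 to 2.16 for Marco. No paired analysis was possible because library numbers are unique to each library and groups share none.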
